A study of Mus musculus with 8 samples.

Results

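The genes described here encode enzymes, carriers and regulators of the tricarboxylic acid (TCA) cycle and of the routes by which pyruvate and glutamine carbon enters it. The set is a list of 35 genes chosen by function, though with earlier results of these data known. They are from 21631 mouse protein-coding genes on the 20 chromosomes that the data cover. The set holds 12 genes of pyruvate entry, 15 genes of the cycle and 8 genes of glutamine and malic enzyme metabolism. Not every enzyme of the cycle is in it. All samples were CD8+ T cells of C57BL/6 mice, purified from lymph node and spleen, stimulated with antibodies to CD3 and CD28, and treated for 48 h. In one group the treatment was PIPs EnPGC-1, and in the other it was the vehicle DMSO. The title of the series places the work under mitochondrial biogenesis, which PGC-1 coactivators are known to drive. The mark mapped was H3K27ac, the acetylation of histone H3 at lysine 27 that is found at active promoters and enhancers, by chromatin immunoprecipitation and sequencing (ChIP-seq). Each treatment had 2 H3K27ac samples, but the data used are 1 list of peak intervals per treatment, on mouse build mm10. Nothing in the labels says how many mice were used or that samples came from separate animals. There is therefore no spread between replicates for any value below and no test between treatments. The read depth of each sample is unknown here, and a mark in more cells and a stronger mark per cell cannot be told apart.

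Pyruvate made by glycolysis in the cytosol crosses the inner mitochondrial membrane through a carrier built from MPC1 and MPC2. The pyruvate dehydrogenase complex then turns it into acetyl-CoA, kinases (PDK) switch that complex off by phosphorylation, and phosphatases (PDP) switch it back on. Acetyl-CoA joins oxaloacetate to make citrate, which the cycle oxidises back to oxaloacetate while making NADH. Glutamine carbon enters as 2-oxoglutarate, and activated T cells are known to draw on this route for growth. Citrate that leaves the mitochondrion is split by ATP citrate lyase, which supplies the acetyl-CoA of the nucleus and cytosol, including that used to acetylate histones.

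The EnPGC-1 list was much the larger one. It held 253423 distinct intervals covering 165.2 Mb, against 81522 intervals covering 41.26 Mb in the DMSO list, a ratio of 4.00 in covered bases genome-wide and 3.79 over protein-coding genes. Any gene is thus more likely to hold an EnPGC-1 interval, and the members are read against all genes throughout. Of 8 marker genes of CD8 T cells, 2 had a DMSO interval and 7 an EnPGC-1 interval within 1 kb of a gene end. Of all genes, 41.6% and 72.8% did. Cd3d had none in either list within that window. Markers of other cell types were listed as well: 2 and 4 of 4 for B cells, 3 and 2 of 3 for CD4 T cells, 3 and 3 of 4 for myeloid cells and 0 and 1 of 3 for NK cells. Summed within 5 kb of the gene ends, the DMSO and EnPGC-1 bases were 6019 and 25065 for the CD8 T cell markers and 4998 and 16503 for B cells. They were 4078 and 14567 for CD4 T cells, 4461 and 12067 for myeloid cells and 1606 and 3020 for NK cells. These sums run over unequal numbers of genes. Eomes was the 1 NK cell gene marked within 1 kb, and it held 1284 and 2635 of the NK bases. The sets are not exclusive to a cell type. Eomes is not confined to NK cells, and Cd3d, Cd3e, Cd3g, Cd247 and Lck are not confined to CD8 T cells. Per gene, the medians were 441 and 2020 for the CD8 T cell markers and 1139 and 4708.5 for B cells. They were 1615 and 4428 for CD4 T cells, 602.5 and 1662 for myeloid cells and 322 and 385 for NK cells. By median, the CD8 T cell markers were thus below those of B cells and CD4 T cells in both lists. Among the markers at 0 within 5 kb in the DMSO list and above 0 in the EnPGC-1 list were Cd3d, Cd3g, Lck and Itgam, and Ncr1 was at 0 in both. The part of other cells in the values below was not tested.

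Most of the 35 genes carried the mark at a gene end in the EnPGC-1 list, and about as many carried it in both lists as in that list alone. Within 1 kb of either end of the gene, 17 members had an interval in the DMSO list, beside 41.6% of all protein-coding genes. In the EnPGC-1 list 31 members had one, beside 72.8% of all genes. All 17 genes of the DMSO list were in both lists (39.4% of all genes). A further 14 were marked by EnPGC-1 intervals alone (33.4%), and 0 by DMSO intervals alone (2.19%). More bases were covered in the EnPGC-1 list at 30 members (67.7%). The other 4 members, Mpc2, Pdhb, Idh1 and Sucla2, had no interval there in either list, as did 25% of all genes. As a share of the set, 48.6% of members held DMSO marks and 88.6% held EnPGC-1 marks. The EnPGC-1 share was above that of all genes, while the DMSO share was closer to it and did not stay above it under stricter scores: at a score of 2 or more 10 members had a DMSO interval, beside 30.6% of all genes, and at the median score or higher 10, beside 28.8%. Of the 18 members with no DMSO interval, 14 had an EnPGC-1 interval (77.8%), beside 57.2% of all such genes.

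These calls depended on how many intervals of the larger list were used. With the EnPGC-1 list reduced to its 81522 intervals of highest score, 16 members were marked in the EnPGC-1 list (40.5% of all genes) and 17 in the DMSO list. Then 8 members had EnPGC-1 intervals alone (15.5% of all genes) and 9 had DMSO intervals alone (16.5%), so the excess of EnPGC-1 calls was gone. This choice cuts the EnPGC-1 list to the length of the DMSO list, and the shares of all genes came level too. The loss of the excess is therefore not read as a trait of the members. The 8 were Pdk4, Pdp2, Idh3a, Suclg1, Fh1, Mdh1, Glud1 and Gls2. The 9 were Pdk2, Pdk3, Cs, Idh2, Idh3g, Ogdh, Dlst, Me1 and Got1, all of which had an EnPGC-1 interval of lower score. Over 4 stricter choices (a score of 2 or more, the median score of the list or higher, equal numbers, and a width of at least 500 bp), 5 genes kept the call of EnPGC-1 intervals alone each time, as did 12.9% of all genes: Pdk4, Pdp2, Fh1, Mdh1 and Glud1. Dlat and Pdha1, which encode parts of the pyruvate dehydrogenase complex, were in both lists each time, as were 11.4% of all genes. The count of 5 of 35 is near the share of all genes. Taken singly, a score of 2 or more left 21 members with EnPGC-1 intervals alone (41% of all genes). The median score or higher left 17 (30.6%), and a width of at least 500 bp left 18 (38.5%). Members with any DMSO interval were then 10, 10 and 9. Of the 4 choices, only equal numbers, which alone leaves the DMSO list uncut, removed the excess of EnPGC-1 calls.

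**Figure D1:**
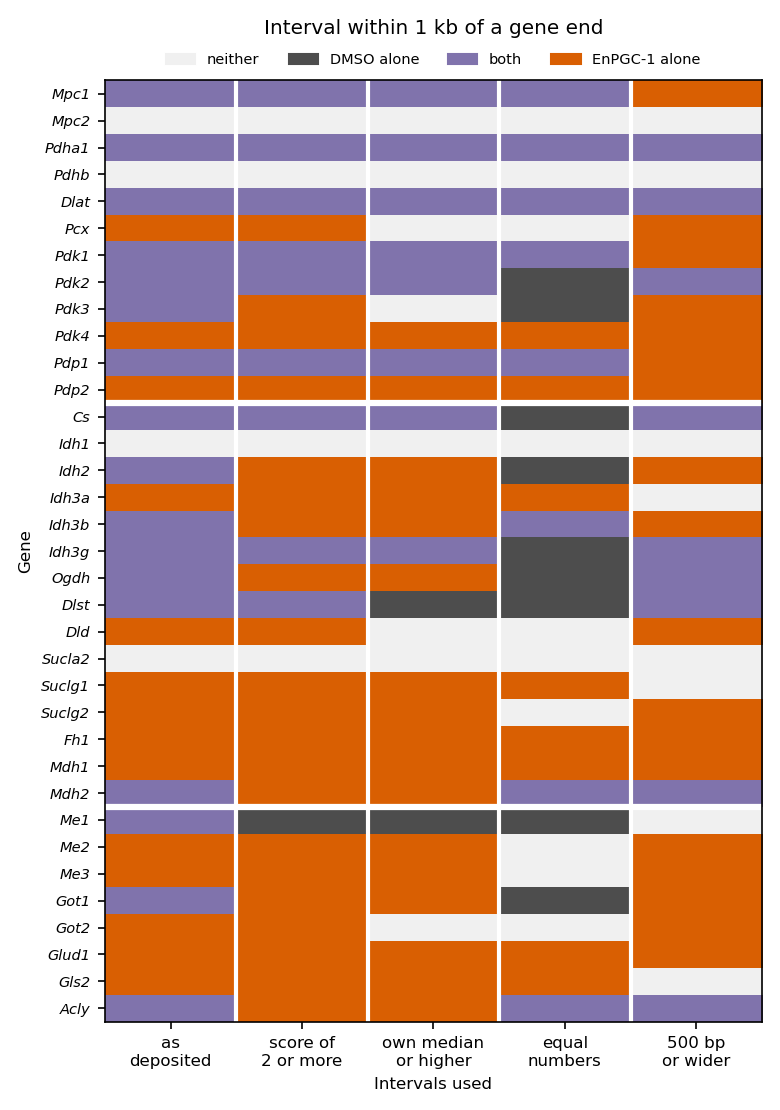
Calls for each of the 35 genes (rows, by step from the top: pyruvate entry, cycle, glutamine and malic enzymes) within 1 kb of a gene end, for all deposited intervals and for 4 stricter choices (columns). Colour gives the list or lists that held an interval: 14 genes have EnPGC-1 intervals alone when all are used, and with equal numbers 8 have EnPGC-1 intervals alone and 9 DMSO intervals alone.

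Within 5 kb of the gene ends nearly every member was marked. The DMSO list had an interval there at 27 members (62.6% of all genes) and the EnPGC-1 list at 34 (84.1%), with 27 in both (61.4%), 7 marked by EnPGC-1 intervals alone (22.8%) and 0 by DMSO intervals alone (1.2%). The one gene without any was Mpc2, beside 14.7% of all genes. More bases of this window were covered in the EnPGC-1 list at 33 of 35 members, beside 81.4% of all genes. The exceptions were Mpc2, at 0 in both lists, and Me1, with 1114 DMSO and 859 EnPGC-1 bases, where 3.97% of all genes had fewer EnPGC-1 than DMSO bases. The members' median was 571 DMSO and 1976 EnPGC-1 bases, beside 432 and 1891 bases for all genes. The members' medians were thus slightly higher than those of all genes on both sides.

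**Figure D2:**
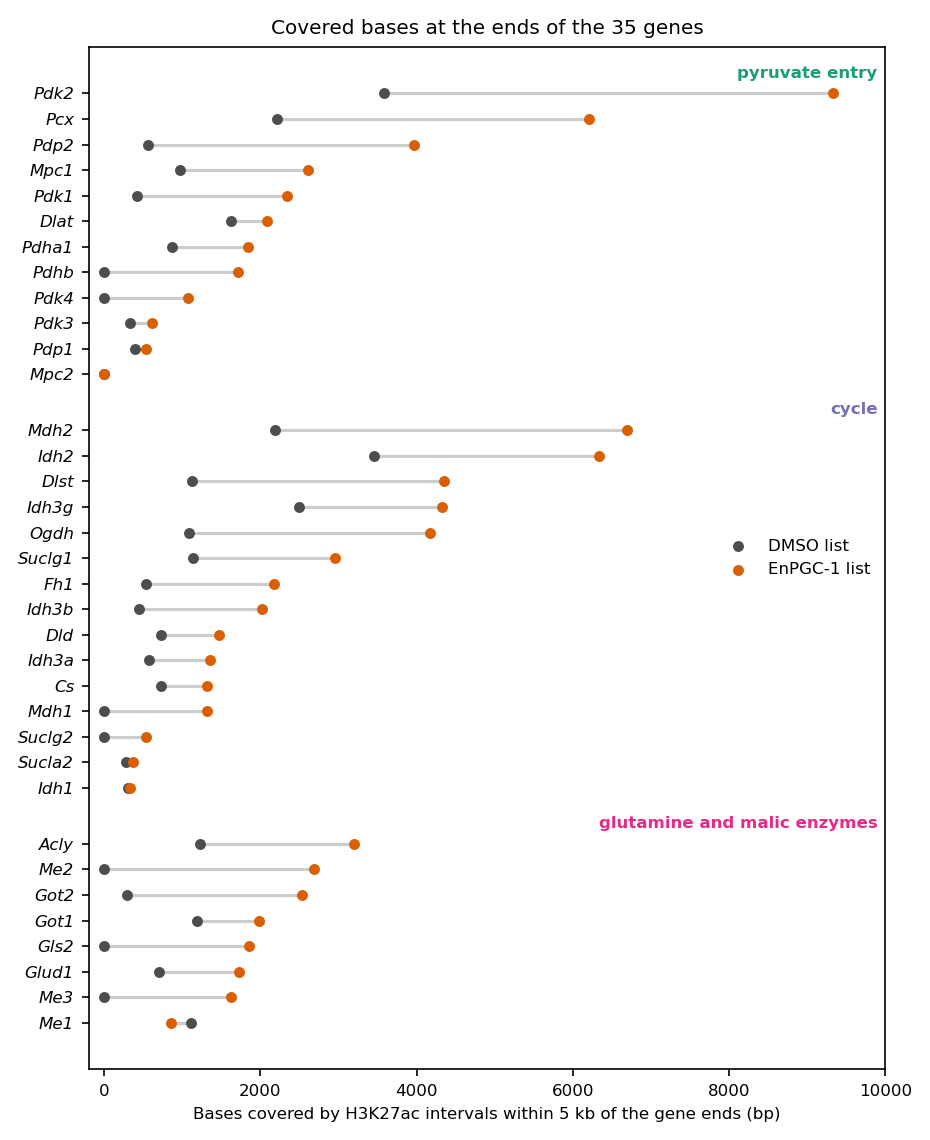
Bases covered by H3K27ac intervals within 5 kb of the 2 gene ends (horizontal axis, bp) for each gene, grouped by step, in the DMSO list (grey) and the EnPGC-1 list (orange), 1 value per list with no replicate error. Pdk2 has the most in both lists, 3580 and 9333 bases, Mpc2 has 0 in both, and Me1 alone has fewer in the EnPGC-1 list.

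Among the genes of pyruvate entry, the 2 subunits of the pyruvate carrier were listed very differently. Mpc1 had a DMSO interval of 331 bp (chr17:8283354-8283684), which lies before the gene start, and an EnPGC-1 interval of 1235 bp (chr17:8283574-8284808) that spans the start. The EnPGC-1 interval scored 8.34, above 98.5% of the intervals of its list, where the score is the authors' value per peak, taken to be a -log10 q-value. A second EnPGC-1 interval, with no DMSO interval under it, lay farther before the start (chr17:8282712-8283194). Mpc2, on chromosome 1 from 165461260 to 165481218, had none in the gene or within 5 kb of it. The nearest intervals to Mpc2 lay 19321 bp away in the DMSO list and 19315 bp away in the EnPGC-1 list. MPC1 and MPC2 are known to work as a pair, and only the gene of one partner was marked in these lists.

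Of the genes of the pyruvate dehydrogenase complex itself, Pdha1 and Dlat were marked at an end in both lists, and Pdhb in neither. At Pdha1, the gene of the E1 alpha subunit, the intervals were of similar width, 862 bp in the DMSO list (chrX:160137500-160138361) and 928 bp in the EnPGC-1 list (chrX:160137901-160138828). They were shifted against each other, with the EnPGC-1 interval reaching 398 bp before the start and the DMSO interval beginning 69 bp after it. At Dlat, the gene of the E2 subunit, the DMSO interval was 851 bp wide (chr9:50659236-50660086) and the EnPGC-1 interval 1130 bp (chr9:50658959-50660088). Both began at nearly the same place before the start, and the EnPGC-1 interval of Dlat scored above 97.0% of its list. Pdhb, the gene of the E1 beta subunit, had no interval within 1 kb of its ends, and its first DMSO interval lay 7265 bp away. It held 1 EnPGC-1 interval inside the gene (chr14:8168423-8169246) and had 2 more beyond its far end. Pcx encodes pyruvate carboxylase, which makes oxaloacetate from pyruvate. It was marked at the ends in the EnPGC-1 list alone, by an interval of 998 bp just after the first start (chr19:4510707-4511704) and one of 2293 bp at the far end (chr19:4619298-4621590). Within 5 kb of its ends Pcx did have 2209 DMSO bases, beside 6211 EnPGC-1 bases.

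The 4 kinase genes, which encode the brakes on the complex, differed widely, from 9333 EnPGC-1 bases within 5 kb at Pdk2 to 616 at Pdk3. Pdk2 held 9 EnPGC-1 intervals, counting the gene and 5 kb on each side, and 6 DMSO intervals. Its widest, of 3667 bp, lay inside the gene (chr11:95031846-95035512) and was also the widest interval at any member. At the start of Pdk2 only the EnPGC-1 list had an interval (chr11:95040303-95041418), while at the far end the DMSO list had one of 617 bp (chr11:95025520-95026136) and the EnPGC-1 list one of 2306 bp. Pdk1 had a DMSO interval of 419 bp after its start, and 2 EnPGC-1 intervals of 551 and 318 bp, the first across the start. Pdk3 had 1 narrow interval in each list at its start, of 332 and 616 bp. Pdk4, which is known to be induced in fasting and by PPAR and ERR receptors in other tissues, was in the EnPGC-1 list alone. Its interval of 574 bp crossed the start (chr6:5495948-5496521) with a score above 87.2% of its list, and the nearest DMSO interval lay 6658 bp from the gene. Of the phosphatase genes, Pdp2 was also in the EnPGC-1 list alone, with an interval of 913 bp across its start (chr8:104591169-104592081). Pdp1 had 1 interval in each list at the same gene end, which did not overlap (DMSO chr4:11966595-11966990, EnPGC-1 chr4:11965539-11966066). Of the 4 kinases and 2 phosphatases together, all 6 had an EnPGC-1 interval within 1 kb of an end (72.8% of all genes) and 4 a DMSO interval (41.6%).

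Among the 15 cycle genes, 7 were marked at an end in both lists (39.4% of all genes), 6 by EnPGC-1 intervals alone (33.4%) and 2 in neither list (25%). Cs encodes citrate synthase, the first enzyme of the cycle. It was one of 3 members, with Idh3g and Got1, that had fewer EnPGC-1 than DMSO bases at the start, in an interval of 725 bp (chr10:128337621-128338345) against 361 bp (chr10:128337968-128338328). Within 1 kb of its ends Cs had 725 DMSO and 370 EnPGC-1 bases, and no other member had fewer in the EnPGC-1 list in that window, where 7.36% of all genes did.

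The 3 subunit genes of the NAD-dependent isocitrate dehydrogenase were each listed in another way. Idh3g, the gene of a regulatory subunit, had nearly the same interval at its start in both lists, 964 bp in the DMSO list (chrX:73786708-73787671) and 958 bp in the EnPGC-1 list (chrX:73786680-73787637). Its DMSO interval scored 4.00, above 91.5% of that list and the highest score of any DMSO interval at a member's start. The genes Srpk3 and Ssr4 have an end within 1 kb of an end of Idh3g. Idh3a, the gene of the catalytic subunit, was in the EnPGC-1 list alone, by intervals of 321 and 324 bp at its 2 ends. Idh3b had a DMSO interval of 446 bp near its far end and an EnPGC-1 interval of 651 bp at its start, and these did not overlap. The NADP-dependent enzymes also differed. Idh2, the mitochondrial one, had 3459 DMSO and 6338 EnPGC-1 bases within 5 kb, among the 3 highest members in both lists. Its annotated start lies inside the gene, and the intervals just after that start were 916 bp (chr7:80114030-80114945) and 931 bp (chr7:80114389-80115319) wide. Idh1, the cytosolic one, had no interval at its outer ends, but both lists had one at a second, inner start, of 644 and 1307 bp (chr1:65178375-65179018 and chr1:65178118-65179424).

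The 2-oxoglutarate dehydrogenase genes were marked at their starts in both lists or in the EnPGC-1 list alone. Ogdh, the gene of its E1 subunit, had intervals of 516 bp (DMSO) and 520 bp (EnPGC-1) at its start that met only at their edges. Dlst, the gene of its E2 subunit, had a DMSO interval of 733 bp and an EnPGC-1 interval of 809 bp at its start, and 2 further EnPGC-1 intervals at its far end. Dld encodes the E3 subunit that this complex shares with pyruvate dehydrogenase. It was in the EnPGC-1 list alone, with an interval of 662 bp across the start (chr12:31350885-31351546) whose score was above only 24.6% of its list.

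The succinyl-CoA ligase genes were marked at their ends in the EnPGC-1 list alone or in neither list. In the DMSO list 0 of the 3 had an interval within 1 kb of an end, beside 41.6% of all genes. In the EnPGC-1 list 2 of the 3 had one, beside 72.8%. Sucla2, the gene of the ATP-forming subunit, had none there in the EnPGC-1 list either, but held 5 EnPGC-1 intervals inside the gene. Suclg1, the gene of the shared subunit, had 1 EnPGC-1 interval near its far end (chr6:73277597-73278021) and none at the start. Suclg2, the gene of the GTP-forming subunit and the longest member at 245850 bp, had 1 of 528 bp just after its start (chr6:95718192-95718719). The body of Suclg2 held 10 DMSO intervals (1.73% of its length) and 25 EnPGC-1 intervals (5.32%).

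For the last steps of the cycle, Fh1 and Mdh1 had EnPGC-1 intervals alone in all of the 4 stricter choices. Fh1, the fumarase gene, had EnPGC-1 intervals just after its start (chr1:175624969-175625391) and near its far end (chr1:175601893-175602848). Mdh1, the gene of the cytosolic malate dehydrogenase, had an interval of 994 bp across its start (chr11:21571446-21572439) that scored above 95.4% of its list. The nearest DMSO interval lay 109423 bp from Mdh1, the longest such distance in the set. Mdh2, the gene of the mitochondrial enzyme, was marked in both lists, with 2181 DMSO and 6689 EnPGC-1 bases within 5 kb. At its start the DMSO interval of 633 bp lay across the start (chr5:135778604-135779236), and EnPGC-1 intervals of 503 and 484 bp lay on the 2 sides of the start. The highest-scoring EnPGC-1 interval of Mdh2 was inside the gene (chr5:135786259-135787828), where it joined 2 separate DMSO intervals.

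All 8 genes of glutamine and malic enzyme metabolism were marked at an end in the EnPGC-1 list, beside 72.8% of all genes. In the DMSO list 3 of them were, Got1, Me1 and Acly, beside 41.6%. With equal numbers of intervals, 2 of the 8 had EnPGC-1 intervals alone, 1 was in both lists, 2 had DMSO intervals alone and 3 had neither. Glud1 encodes glutamate dehydrogenase, which makes 2-oxoglutarate from glutamate. It had EnPGC-1 intervals of 318 and 586 bp on the 2 sides of its start (chr14:34310079-34310396 and chr14:34310947-34311532), and the nearest DMSO interval lay 3607 bp from the gene. Gls2, a glutaminase gene, likewise had 2 narrow EnPGC-1 intervals at 1 end, of 284 and 365 bp, and no DMSO interval at its ends. Inside the gene Gls2 had a DMSO interval of 396 bp. The transaminases GOT1 and GOT2 move nitrogen between glutamate and aspartate as part of the malate-aspartate shuttle. Got1 had a DMSO interval of 483 bp and an EnPGC-1 interval of 388 bp just before its start, whereas Got2 had an EnPGC-1 interval of 671 bp just after its start and no DMSO interval at its ends.

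The 3 malic enzyme genes, whose products turn malate into pyruvate, did not share a pattern. Me1, the cytosolic NADP-dependent form, had a DMSO interval of 330 bp (chr9:86695284-86695613) whose score was above 84.6% of its list. The EnPGC-1 interval at the same place was 415 bp wide, with a score above only 5.9% of its list. Me1 had a DMSO interval alone at a score of 2 or more, at the median score or higher, and at equal numbers of intervals. Me2 and Me3, the mitochondrial forms, were in the EnPGC-1 list alone. Me2 had 3 intervals near its ends, the widest of 1008 bp, and Me3 had 1 of 874 bp across its start (chr7:89632271-89633144). Over the whole gene, Me3 held 3 DMSO and 21 EnPGC-1 intervals. Acly, the ATP citrate lyase gene, had a DMSO interval of 563 bp with one of the lowest scores of its list (chr11:100527919-100528481). Its EnPGC-1 interval of 1528 bp (chr11:100526912-100528439) covered most of the same place and reached 1088 bp into the gene.

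At the gene start itself, the members' mark was compact. RefSeq start positions with strand were found for 31 of the 35 genes, all but Pdp1, Idh3a, Gls2 and Me2. Within 1 kb of an annotated start, 15 of the 31 had a DMSO interval (33.5% of all genes with a start) and 27 an EnPGC-1 interval (67.3%). Of these, 12 had EnPGC-1 intervals alone (36.8%), and 0 had DMSO intervals alone (3.09%). Within 1 kb of the far end of the gene, 4 had a DMSO interval (19.9%) and 14 an EnPGC-1 interval (45.1%), so at far ends the members' share was level with that of all genes in the EnPGC-1 list and below it in the DMSO list. The highest coverage lay after the start, where between 200 and 300 bp 72.1% of member positions were covered in the EnPGC-1 list, beside 42.4% over all genes. In the DMSO list the highest value was 28.2%, between 400 and 500 bp after the start, beside 11.3%.

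Beyond 1 kb from the start, the members' shares in the EnPGC-1 list were below those of all genes. From 1 to 2 kb after the outermost start, 4 of 31 members had any base in an EnPGC-1 interval, Acly, Mpc1, Pcx and Pdk2, beside 32.9% of all genes. Among genes with an EnPGC-1 interval within 1 kb of that start, the counts were 4 of 26 members (15.4%) and 45.3% of all such genes. From 2 to 5 kb after the start it was 7 of 31 members (22.6%) beside 43.3%, and from 1 to 5 kb before it 9 of 31 (29.0%) beside 43.8%. The DMSO list did not show the same order throughout. There 1 of 31 members, Idh2, had bases from 1 to 2 kb after the start, beside 2077 of all 17274 genes, but 7 of 31 (22.6%) had bases from 2 to 5 kb after it, beside 19.4%, and 6 of 31 (19.4%) from 1 to 5 kb before it, beside 18.4%. These distances were chosen after the profile had been seen, and they are given as a description.

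**Figure D3:**
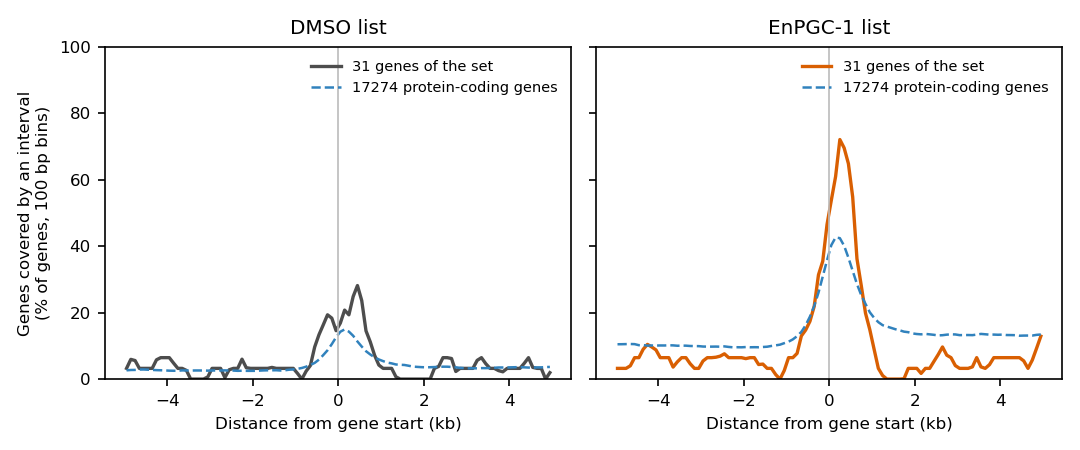
Share of genes covered by an interval (vertical axis, % of genes in bins of 100 bp) by distance from the outermost gene start in the direction of transcription (horizontal axis, kb), for 31 members (solid) and 17274 protein-coding genes (dashed), in each list. In the EnPGC-1 list the members reach 72.1% just after the start, beside 42.4% of all genes, and beyond 1 kb they lie under all genes in every bin but the one from 4300 to 4200 bp before the start (10.5% beside 10.1%).

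**Figure D4:**
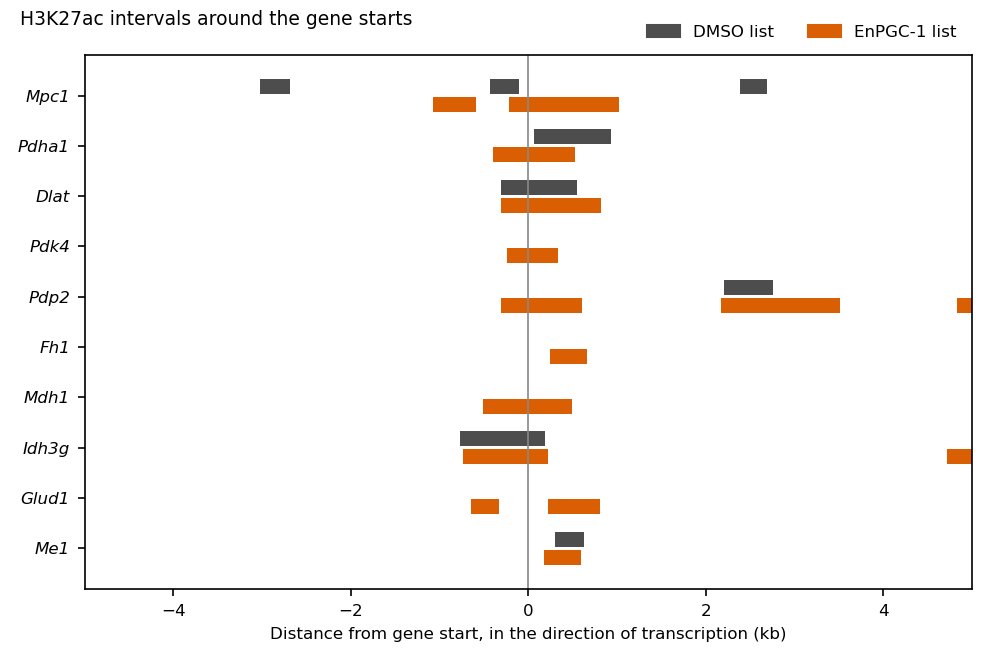
Intervals within 5 kb of the outermost start of 10 members (horizontal axis, kb in the direction of transcription), DMSO list in grey and EnPGC-1 list in orange, each bar 1 interval to scale. Pdk4, Fh1, Mdh1 and Glud1 show no DMSO interval in this window, while Idh3g has nearly the same interval in both lists and those of Dlat share their edge before the start.

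Promoter sequences are shown for 6 members: the 3 with the largest difference in covered bases near their starts (Pcx, Mpc1 and Pdk2), and from each step the gene with the most DMSO bases there (Pdha1, Idh3g and Acly). They come from RefSeq on GRCm38.p6 (the same coordinates as mm10) and are the 250 bases before the outermost start, 5′ to 3′ on the gene's strand. Capitals mark an E-box, CACGTG. Within 1 kb of the starts the covered bases in the DMSO and EnPGC-1 lists were 0 and 1562 for Pcx, 331 and 1643 for Mpc1, and 0 and 1116 for Pdk2. They were 862 and 928 for Pdha1, 964 and 958 for Idh3g, and 563 and 1440 for Acly. The first 3 thus differ by over 1000 bases and the next 2 hardly at all.
Pcx, chr19:4510222-4510471, plus strand: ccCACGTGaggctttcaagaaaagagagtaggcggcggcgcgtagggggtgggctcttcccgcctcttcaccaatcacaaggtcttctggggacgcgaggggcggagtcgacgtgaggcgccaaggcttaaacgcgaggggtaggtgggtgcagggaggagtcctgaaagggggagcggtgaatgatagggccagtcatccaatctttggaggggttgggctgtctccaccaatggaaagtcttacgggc
Mpc1, chr17:8283537-8283786, plus strand: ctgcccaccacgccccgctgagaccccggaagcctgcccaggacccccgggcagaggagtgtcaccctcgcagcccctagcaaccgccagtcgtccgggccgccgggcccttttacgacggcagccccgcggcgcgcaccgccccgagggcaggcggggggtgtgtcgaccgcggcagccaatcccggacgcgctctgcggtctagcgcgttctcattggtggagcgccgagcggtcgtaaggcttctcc
Pdk2, chr11:95041372-95041621, minus strand: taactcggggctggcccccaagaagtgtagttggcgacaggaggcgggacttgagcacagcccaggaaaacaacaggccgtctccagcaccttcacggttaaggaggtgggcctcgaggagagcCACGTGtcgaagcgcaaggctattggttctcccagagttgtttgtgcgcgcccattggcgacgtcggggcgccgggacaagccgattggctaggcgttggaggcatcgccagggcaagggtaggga
Pdha1, chrX:160138431-160138680, minus strand: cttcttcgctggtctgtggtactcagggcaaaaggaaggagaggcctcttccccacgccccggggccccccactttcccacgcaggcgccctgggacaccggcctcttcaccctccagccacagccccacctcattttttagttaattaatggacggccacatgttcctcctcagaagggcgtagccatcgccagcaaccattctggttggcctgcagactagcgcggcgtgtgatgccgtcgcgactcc
Idh3g, chrX:73786898-73787147, minus strand: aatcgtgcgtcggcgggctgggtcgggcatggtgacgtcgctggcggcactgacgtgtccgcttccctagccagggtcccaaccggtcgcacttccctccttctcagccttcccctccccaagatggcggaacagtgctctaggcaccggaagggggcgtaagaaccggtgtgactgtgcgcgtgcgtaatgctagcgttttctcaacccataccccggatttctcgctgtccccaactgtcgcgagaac
Acly, chr11:100528001-100528250, minus strand: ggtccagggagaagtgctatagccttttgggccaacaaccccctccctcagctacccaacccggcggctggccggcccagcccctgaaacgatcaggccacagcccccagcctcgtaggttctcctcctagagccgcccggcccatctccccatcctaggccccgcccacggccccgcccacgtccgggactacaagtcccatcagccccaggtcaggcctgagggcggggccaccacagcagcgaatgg

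The motifs searched on both strands were the extended ERR half-site TCAAGGTCA, the palindromic NRF1 site, a looser form of it with any base at 1 position (which includes the exact site), the cAMP response element TGACGTCA and the E-box CACGTG. ERR and NRF1 are nuclear factors known to work with PGC-1 on mitochondrial genes. In the 250 bases before the starts, 0 of 31 members held the ERR letters (0.365% of all genes) and 0 the exact NRF1 site (1.22%). The looser NRF1 form was found at Sucla2 alone, against 5.91% of all genes. The cAMP response element was found at Mdh2 and Ogdh (2.23% of all genes), and the E-box at Ogdh, Pcx, Pdk2 and Pdp2 (7.70%). In the printed sequences the E-box lies 248 bases before the start of Pcx and 126 bases before that of Pdk2. A match is a string of letters and not a site shown to be bound, and no match says only that these letters are not in this window. The members' starts were rich in G and C, with a median of 61.0% over 42 starts beside 55.6% over all 21045 starts.

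Over the gene bodies, the excess of EnPGC-1 coverage at the members was slightly smaller than over genes in general. The DMSO list had 80 intervals in the bodies of the members, covering 38155 bases, and the EnPGC-1 list 207 intervals covering 131414 bases. The ratio of covered bases was 3.44, beside 3.77 over all protein-coding genes. By step it was 3.97 for pyruvate entry, 3.00 for the cycle and 3.61 for glutamine and malic enzymes. More bases were covered in the EnPGC-1 list at 33 members (79.3% of all genes) and fewer at 1 (3.73%), which was Pdha1 with 862 and 834 bases. The median member had 2.39% of its body covered by DMSO intervals and 8.15% by EnPGC-1 intervals, beside 1.275% and 9.399% over all genes. Pdk2 had the highest share of its body covered by EnPGC-1 intervals, 60.2% beside 10.6% by DMSO intervals, and 5.58% of all genes were covered as much or more in the EnPGC-1 list. Next came Pdp2, with 7.33% and 34.1%, and Mdh2, with 18.2% and 32.3%. At the low end in the EnPGC-1 list were Mpc2 at 0, Pdk4 at 2.56% and Me1, whose 1829 bases were the smallest share above 0.

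**Figure D5:**
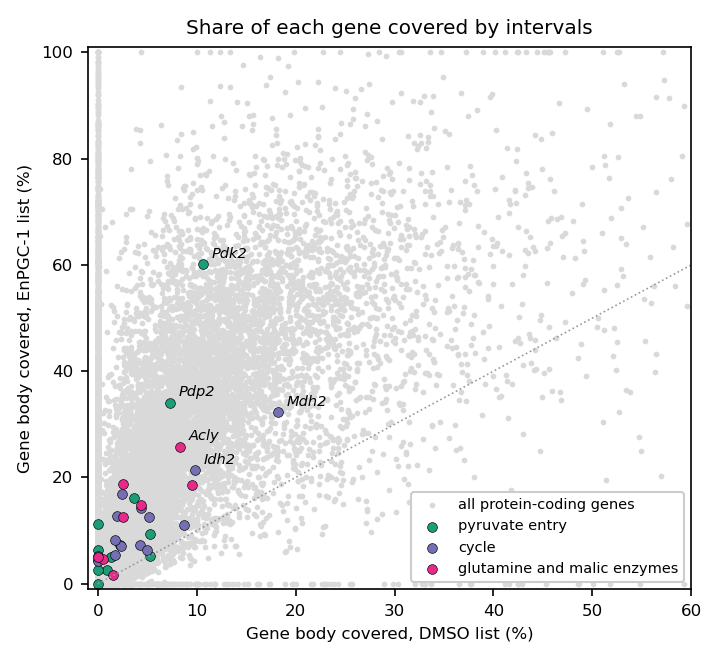
Share of each gene body covered by intervals in the DMSO list (horizontal axis, %) and in the EnPGC-1 list (vertical axis, %), for all protein-coding genes (light grey) and the 35 members coloured by step, with a dotted line of equality. The horizontal axis ends at 60%, beyond which 51 genes lie, and Pdk2 is the highest member at 60.2% in the EnPGC-1 list.

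The intervals of the 2 lists at these genes were compared one by one, over the gene with 5 kb on each side. Of 103 DMSO intervals, 71 shared at least 1 bp with the EnPGC-1 list (68.9%), beside 75.8% over all protein-coding genes. Of 269 EnPGC-1 intervals, 68 shared bases with the DMSO list (25.3%). The matching share over all genes was not computed, and the DMSO list holds far fewer intervals. The 25.3% is therefore not read as a trait of these genes. None of the 3 DMSO intervals of Fh1 did so, and 6 of the 10 of Suclg2 did. Member intervals had scores close to those of their lists, with medians of 2.16 (DMSO) and 3.69 (EnPGC-1) for scores, beside 2.16 and 3.64 over the lists. Their highest scores were 4.96 at Ogdh in the DMSO list and 8.34 at Mpc1, Pdk1, Suclg2 and Me3 in the EnPGC-1 list. The highest scores anywhere in the lists were 178.7 and 540.7.

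Other genes of the same pathways, from a second list of 26, were marked in about the same way. Within 1 kb of an end 12 had a DMSO interval (41.6% of all genes) and 23 an EnPGC-1 interval (72.8%), with 12 marked by EnPGC-1 intervals alone (33.4%). Within 5 kb their median was 606.5 DMSO and 2445.5 EnPGC-1 bases. Among them were the lactate dehydrogenase gene Ldha, with 1470 and 5378 bases, and the citrate carrier gene Slc25a1, with 1726 and 5987. The glutamine transporter gene Slc1a5 had 1333 and 7206 bases.

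Some members share a gene end with a neighbour, so that an interval there cannot be given to 1 gene. Another protein-coding gene ended or began within 1 kb of an end of 14 members. Among them were Cs beside Coq10a, Idh3b beside Nop56, Mdh1 beside Wdpcp and Glud1 beside Shld2. Idh3g beside Srpk3 and Ssr4, and Gls2 beside Spryd4, were also among them. So were Pdk2 beside Samd14, Pcx beside Rce1, Dlst beside Prox2, Idh3a beside Acsbg1 and Mdh2 beside Styxl1. The rest were Mpc2 beside Dcaf6, Pdhb beside Pxk and Idh1 beside Pikfyve. Of the 21 members with no such neighbour, 11 were marked in the DMSO list (36.4% of all genes without a neighbour) and 20 in the EnPGC-1 list (67.5%), with 9 marked by EnPGC-1 intervals alone (33.4%). Of the 14 members with one, 6 and 11 were marked, beside 57.3% and 88.8% of all such genes. The higher share of marked members was therefore found among genes standing by themselves, and Pdk4, Pdp2 and Fh1 were 3 of those. Some members also overlap another gene, so that bases of their bodies can lie in both. Lrfn4 overlaps Pcx, Map3k15 overlaps Pdha1, Nop56 overlaps Idh3b, Prox2 overlaps Dlst and Spryd4 overlaps Gls2.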

How the data were processed

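H3K27ac ChIP-seq peaks of stimulated mouse CD8+ T cells were used as deposited, as 1 list per treatment. Per the submitters' processing notes, the build was mm10 and the tools included MACS2 (2.2.2.20160309) and Bowtie (1.1.2), besides Trimmomatic (0.38), ChIPseeker (11.16.1) and Picard (0.118). Parameters, peak-calling controls and any pooling: not given in the sources used here. The deposited score was read as a -log10 q-value, since its lowest values, 1.31 in both lists, lie just above -log10 of 0.05. It was used to rank and filter intervals within a list, and 1 alternative applied the same minimum score of 2 to both. IgG and input samples were not analysed here.

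Entries repeating an interval were joined (84538 to 81522 DMSO, 329623 to 253423 EnPGC-1), keeping the highest score. Distinct intervals with at least 1 bp in a window, and covered bases, were counted with Python 3.11.15, pandas 2.3.3 and numpy 2.4.6 within 1 kb and 5 kb of either gene end (both windows joined) and over gene bodies, for 35 members and all 21631 genes. Genes and starts came from RefSeq (GRCm38.p6). The same code was tested on simulated intervals, with 0 wrong values in 200 lists. No test was made between treatments. The members and gene lists were chosen with earlier results of these data known. All members are named, and some results on other genes are not reported here. Full coordinates were planned for genes marked in 1 list alone and the 3 most covered, and are also given for other members picked once values were known. Alternatives were score, number, width, overlap and window, and leaving out shared gene ends was added after the data were seen.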

Additional observations from a re-analysis of the deposited data

How the results depend on the processing

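Values are members with an interval within 1 kb of a gene end, as deposited 17 in the DMSO list, 31 in the EnPGC-1 list, 14 by EnPGC-1 intervals alone and 0 by DMSO intervals alone. Of the changes over 1.5 times, DMSO-marked members fell to 10 at a score of 2 or more (30.6% of all genes), 10 at the median score or higher (28.8%) and 9 with intervals of at least 500 bp (22.8%), and were 27 with a window of 5 kb. With equal numbers of intervals, 16 members were marked in the EnPGC-1 list, 8 in it alone and 9 in the DMSO list alone. This removes the excess, since that setting drops EnPGC-1 intervals with a score under 4.21 and no DMSO interval. Among EnPGC-1 intervals tied at 4.21 the widest were kept and the others dropped. The interval of 1008 bp at Me2 was one of those dropped. The DMSO list alone held 1 member (score of 2 or more) or 2 (median score), and the EnPGC-1 list alone 7 with the window of 5 kb. Without members beside another gene end, which leaves 21 genes, the counts were 11, 20, 9 and 0. Covered bases of gene bodies were 38155 in the DMSO list, 24854 at the median score and 21362 with wide intervals, and 131414 in the EnPGC-1 list, 81727 at the median score and 55461 with equal numbers. A window of 500 bp, an overlap of 100 bp and gene starts only (31 genes) changed no count by over 1.5 times. No paired analysis was possible because each treatment has 1 list with no values per sample, and no replicate could be left out for the same reason. Neither list carries read depth, so differences in depth or enrichment between treatments were not tested.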
